A study of Homo sapiens with 18 samples.

Results

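N6-methyladenosine (m6A) peaks that the authors listed for one nanomaterial and not for the other are described here. The cells carry the label A549, the name of a line from a human lung adenocarcinoma. A peak counted as BPQD-only if no peak of the TiO2 table on the same chromosome shared at least 1 base with it, and as TiO2-only in the mirror case. By this rule 7504 of the 14902 peaks of the BPQD table were BPQD-only (50.4%) and 5499 of the 12886 peaks of the TiO2 table were TiO2-only (42.7%), together 13003 of 27788 listed peaks. The compared cells had received 10 mg/L BPQD, 100 mg/L TiO2 (titanium dioxide) or neither, the last group being the untreated control, and exposure lasted 24 h. All 3 groups were the same labelled line in the same medium. Each group had 3 input libraries (RNA before immunoprecipitation) and 3 libraries from m6A immunoprecipitation, 18 libraries in all. Each peak table sets 1 material against the same control libraries, so the tables are not independent of each other. The doses differ 10-fold by mass, so a difference between the materials cannot be told apart from one of dose.

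m6A is a methyl mark on adenosines inside messenger RNA. A nuclear methyltransferase complex (the writers) places it mostly within a short motif, demethylases (erasers) remove it, and proteins that bind it (readers) act on splicing, export, translation and decay of the marked RNA. In most human cell types the mark is densest around stop codons and in 3′ UTRs, while peaks near the transcript start can also hold m6Am, a related mark next to the cap that anti-m6A antibodies bind as well.

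The input libraries summed to between 212891 and 222818 FPKM (fragments per kilobase of exon, scaled to the mapped fragments of the library), with 26131 to 28893 genes above 0 in a library; read depth is not given. Markers went against the label. Of 7 genes fixed as A549 markers only 1 averaged at least 1 FPKM; AKR1C1 and ALDH1A1, known for high levels in that line, had maxima of 1.14 and 0.12 FPKM over the 9 libraries. CDKN2A, which that line lacks, ranged between 19.3 and 27.4 FPKM. Keratins of epithelial cells were high, with KRT18 between 403 and 582 FPKM, while the epithelial marker EPCAM ranged only between 2.02 and 3.09 FPKM. The leukocyte gene PTPRC was at most 0.035 FPKM. The 3 leukocyte markers, nearly all CD68, summed to between 11.5 and 12.5 FPKM under BPQD, 17.4 and 22.9 under TiO2, and 10.8 and 12.8 in control. The 4 fibroblast markers summed to between 4.34 and 4.82 FPKM under BPQD, 5.49 and 6.04 under TiO2, and 7.31 and 7.68 in control. The 3 endothelial markers summed to between 1.19 and 1.35 FPKM under BPQD, 2.15 and 3.92 under TiO2, and 3.02 and 3.63 in control. Single members of these lists differed: COL1A2, CD3E and PECAM1 were at most 0.10, 0.046 and 0.19 FPKM. Of the fibroblast list, COL1A1 ranged between 1.52 and 3.39, PDGFRB between 1.61 and 3.29 and FAP between 0.69 and 1.99 FPKM. Of the endothelial list, CDH5 ranged between 1.14 and 3.73 FPKM, and VWF was at most 0.095 FPKM. The part of other cell types in the results was not tested. The cells are therefore called "labelled A549" and no other name is given to them. Nothing in the labels says whether the 3 libraries of a group came from separate cultures. The p-values of input expression therefore measure the spread between these libraries, which may be technical. What spread the authors' p-values of peaks measure is not known here.

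To show what such peaks look like at base resolution, 8 sites are printed first. They are sites of the sequence GGAC, the core of the m6A motif, within the first 50 transcribed bases of a gene (RefSeq, GRCh38.p14) that lay wholly inside a material-only peak annotated as 5′ UTR. For each set and direction the 2 sites were taken whose peak had the smallest authors' p, among peaks up to 1000 bases wide, genes of at least 1 FPKM and chromosomes other than 8. Each run is 30 bases of the transcribed strand, 5′ to 3′, and the capitals mark GGAC.
EIF5A (BPQD-only, lower): agggcgggGGACggcgagccgcgaggcagc
TNFAIP2 (BPQD-only, lower): ggcggccaggccgGGACacggtaagtgacc
JAK2 (BPQD-only, higher): agggggcagcagcGGACgccgctaacggcc
SPSB3 (BPQD-only, higher): tttagatgcctgcgGGACaggcgggcgggg
ST7L (TiO2-only, higher): gcggcaagatggcGGACcgtggcggcgtgg
PSRC1 (TiO2-only, higher): gattcccgGGACtaggttgcgggagaaagc
MRPL46 (TiO2-only, lower): gcgcccgtaaggcGGACgctgttaggggtg
STX6 (TiO2-only, lower): ctgagcgagtgctGGACcagcggccgtcct

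The EIF5A site, chr17:7307969-7307998 on the plus strand, sits in a 740-base peak whose m6A was lower under BPQD than in control (log2 fold change -0.27, p = 7.94e-17 in the authors' deposited table). EIF5A encodes a translation factor. At TNFAIP2, a gene induced by tumour necrosis factor, the site at chr14:103123464-103123493 (plus strand) lay in a 330-base peak with a log2 fold change of -1.08 (p = 3.47e-10 in the authors' deposited table). The sites of the TiO2-only peaks that were higher, in ST7L (chr1:112619092-112619121, minus strand) and PSRC1 (chr1:109283116-109283145, minus strand), went with log2 fold changes of 0.55 and 0.43 in the authors' deposited table.

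The other sites went with smaller or less certain changes. JAK2, a cytokine-receptor kinase (chr9:4985275-4985304, plus strand), and SPSB3, a SOCS-box protein (chr16:1781773-1781802, minus strand), lay in higher BPQD-only peaks at 1.74 (p = 0.0214) and 0.37 (p = 0.0302 in the authors' deposited table). MRPL46, a mitochondrial ribosomal protein (chr15:88467342-88467371, minus strand), and STX6, a syntaxin of vesicle fusion (chr1:181022825-181022854, minus strand), lay in lower TiO2-only peaks at -0.30 (p = 0.0115) and -0.53 (p = 0.0155 in the authors' deposited table). Strands and coordinates of the sites are those of RefSeq.

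GGAC was about equally frequent in both sets. The 50-base starts inside BPQD-only 5′ UTR peaks held it in 157 of 676 cases (23.2%), and those inside TiO2-only 5′ UTR peaks in 117 of 528 (22.2%). Shared 5′ UTR peaks held it in 25.2% of starts in the BPQD table and 23.5% in the TiO2 table, and all 35116 RefSeq starts in 18.9%. The search covered the transcribed strand only, and starts of 1 gene can overlap. Base composition was also alike, with a median GC content of 68.0% in BPQD-only and 66.0% in TiO2-only starts, against 60% over all starts. A match is a description of the sequence and not a mapped methylation site.

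By annotation, BPQD-only peaks lay more often in the exon class, outside the UTR classes, than TiO2-only peaks did. The authors annotated 2626 BPQD-only peaks as exon (35%, Wilson 95% interval 33.9 to 36.1) and 1669 TiO2-only peaks (30.4%, 29.1 to 31.6). Shared peaks of either table had the smallest exon share, 23.9% in the BPQD table and 24.0% in the TiO2 table. The 3′ UTR, the usual main site of m6A, held 42.6% of BPQD-only peaks (41.5 to 43.8) and 45.2% of TiO2-only peaks (43.8 to 46.5). The 5′ UTR held 22.4% of BPQD-only peaks (21.4 to 23.3) and 24.5% of TiO2-only peaks (23.4 to 25.6). Intervals cover counting error over peaks and not the spread between libraries, and peaks of a gene are not independent. Among exon peaks, 599 BPQD-only and 307 TiO2-only peaks were annotated to an exon of a gene other than the one they were assigned to.

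**Figure D1:**
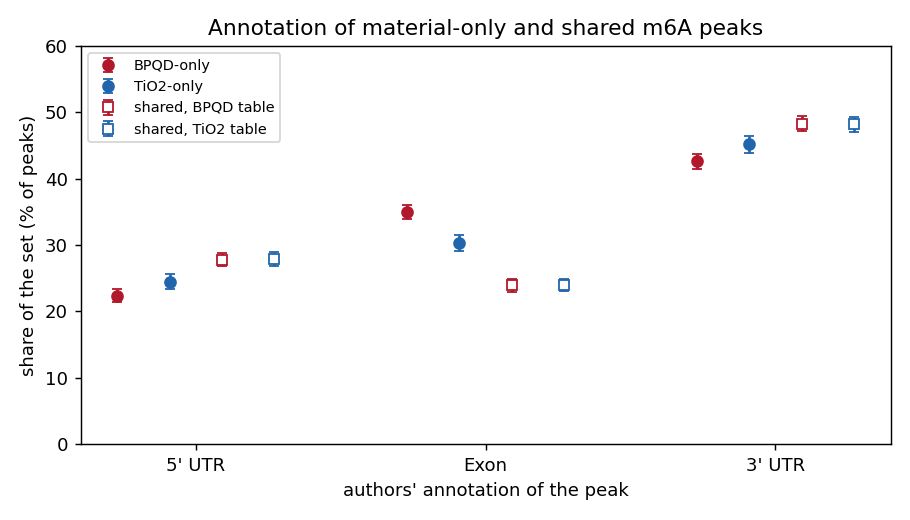
Share of each peak set (vertical axis, % of peaks) annotated as 5′ UTR, exon or 3′ UTR; bars are Wilson 95% intervals for counting error. Exon peaks made up 35% of BPQD-only and 30.4% of TiO2-only peaks, and about 24% of the shared peaks (open squares).

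BPQD-only peaks were narrower than TiO2-only peaks, and both were narrower than shared ones. The second difference is in part built into the rule, since a wider peak is more likely to share a base with another. The median width was 449 bases for BPQD-only peaks (quartiles 210 and 1399) and 567 for TiO2-only peaks (211 and 2235), against 1018 for shared peaks of the BPQD table and 995 for those of the TiO2 table. The difference between the material-only sets lay among the wider peaks, as both lower quartiles were near 210 bases. Spans over 10000 bases made up 6.09% of BPQD-only and 8.57% of TiO2-only peaks. In the 5′ UTR class the gap was widest, with medians of 690 bases for BPQD-only and 1284 for TiO2-only peaks, while exon peaks had a median of 361 bases in both sets. The widest BPQD-only peak spanned 306916 bases of PDE4D, a cyclic AMP phosphodiesterase gene, and the widest TiO2-only peak 262552 bases of MAML3, a Notch co-activator gene.

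A table's peaks were most often material-only in weakly expressed genes and, in part by construction of the 1-base rule, where they were narrow. Of BPQD-table peaks in genes with a mean input level of at most 0.1 FPKM, 64.8% were BPQD-only, and this share declined through every bin to 35.3% above 100 FPKM. In the TiO2 table the share was 55.5% in the lowest bin and 21.3% in the highest. Peaks up to 200 bases wide were BPQD-only in 68.1% and TiO2-only in 58.3% of cases, against 36.8% and 37.1% of peaks over 10000 bases.

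**Figure D2:**
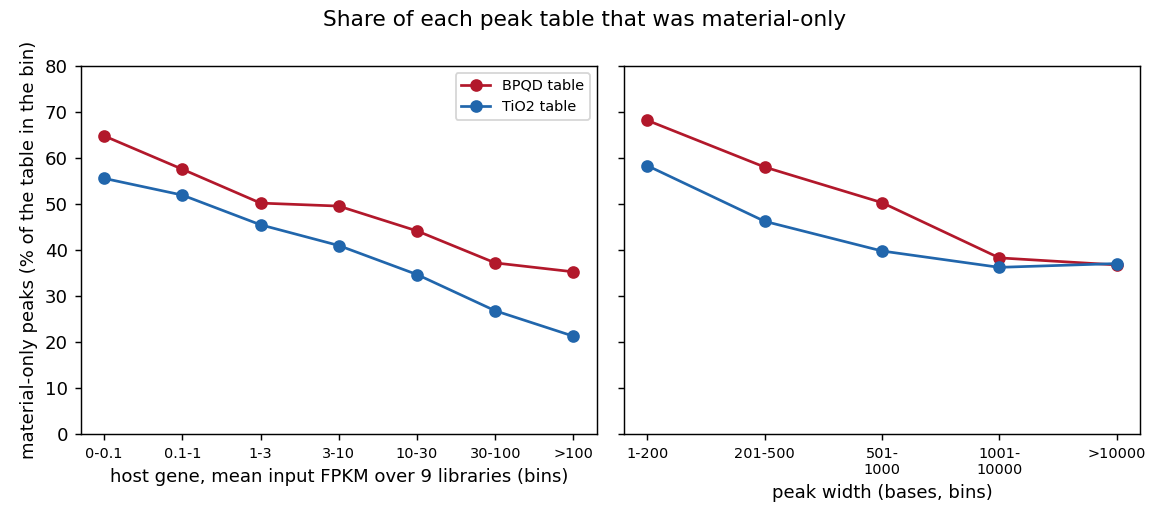
Percentage of each table's peaks that were material-only (vertical axis), by mean input FPKM of the host gene (left) and by peak width in bases (right). In both tables the share was highest for the lowest FPKM bin and the narrowest peaks, 64.8% and 68.1% in the BPQD table and 55.5% and 58.3% in the TiO2 table.

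The host genes themselves were expressed at similar levels. The median over host genes, on the FPKM scale averaged over the 9 input libraries, was 2.89 for the 5613 genes with a BPQD-only peak (interval of the median 2.73 to 3.07) and 2.58 for the 4458 genes with a TiO2-only peak (2.41 to 2.74). Hosts of shared peaks had medians of 4.09 FPKM in the BPQD table and 4.07 in the TiO2 table. Genes under 1 FPKM made up 32.5% of BPQD-only and 32.4% of TiO2-only hosts. By RefSeq type, 79.7% of BPQD-only hosts and 80.9% of TiO2-only hosts were protein-coding, 5.56% and 6.46% were lncRNAs, and 9.35% and 8.46% had no match by symbol.

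Material-only did not mean a gene unmarked under the other material. Of BPQD-only peaks 46.9%, and of TiO2-only peaks 49.1%, lay in a gene with some peak in the other table. In all, 1325 genes held both a BPQD-only and a TiO2-only peak, 23.6% of BPQD-only hosts and 29.7% of TiO2-only hosts. Genes with peaks in the BPQD table alone numbered 3272, those in the TiO2 table alone 2498, and 6208 were in both tables. Some peaks were separated by very little: 10.8% of BPQD-only and 12% of TiO2-only peaks lay within 500 bases of a peak of the other table. Just inside the rule stood a BPQD-only peak of MRGBP and one of IMPDH2 with 0 bases between them and a TiO2-table peak, and just outside it a BPQD-table peak of MEIS2 that shared 1 base.

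Most peaks of both tables passed at the authors' p, taken here apart from their false discovery rate (FDR), at which fewer material-only peaks passed. The authors' p was under 0.05 for 64.8% of all peaks of the BPQD table and 64.1% of the TiO2 table, and for fewer of the material-only ones: 4085 BPQD-only peaks (54.4%) and 2901 TiO2-only peaks (52.8%). How the authors' test used the 3 replicates is not given in the sources used here. Of those, 2260 BPQD-only peaks were higher and 1825 lower than control, and 1876 TiO2-only peaks were higher and 1025 lower; over all BPQD-table peaks 37.7% were higher and 27.1% lower, and over all TiO2-table peaks 40.3% and 23.8%. Large changes were more frequent among BPQD-only peaks, where 1109 (14.8%) had a log2 fold change of 2 or more either way in the authors' deposited table, against 441 TiO2-only peaks (8.02%). The tables as a whole differed likewise, with 9.66% of all BPQD-table and 5.56% of all TiO2-table peaks past that size.

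The sets ran in opposite directions in the 5′ UTR. Under BPQD, 299 BPQD-only 5′ UTR peaks were higher and 630 lower than control at the authors' p under 0.05, with a median log2 fold change of -0.25 over all 1678. Under TiO2, 547 TiO2-only 5′ UTR peaks were higher and 193 lower, with a median of 0.20 over all 1347. Called 5′ UTR peaks were thus mostly lower in the BPQD-only set and mostly higher in the TiO2-only set. Shared 5′ UTR peaks stood between, with 822 higher and 708 lower in the BPQD table and 949 higher and 587 lower in the TiO2 table. In exons and 3′ UTRs both sets leaned upward: 796 exon peaks higher and 395 lower for BPQD-only, 401 and 217 for TiO2-only; 1165 3′ UTR peaks higher and 800 lower for BPQD-only, 928 and 615 for TiO2-only. Immunoprecipitation values per library were not used here, so the difference in direction between the materials was not tested.

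**Figure D3:**
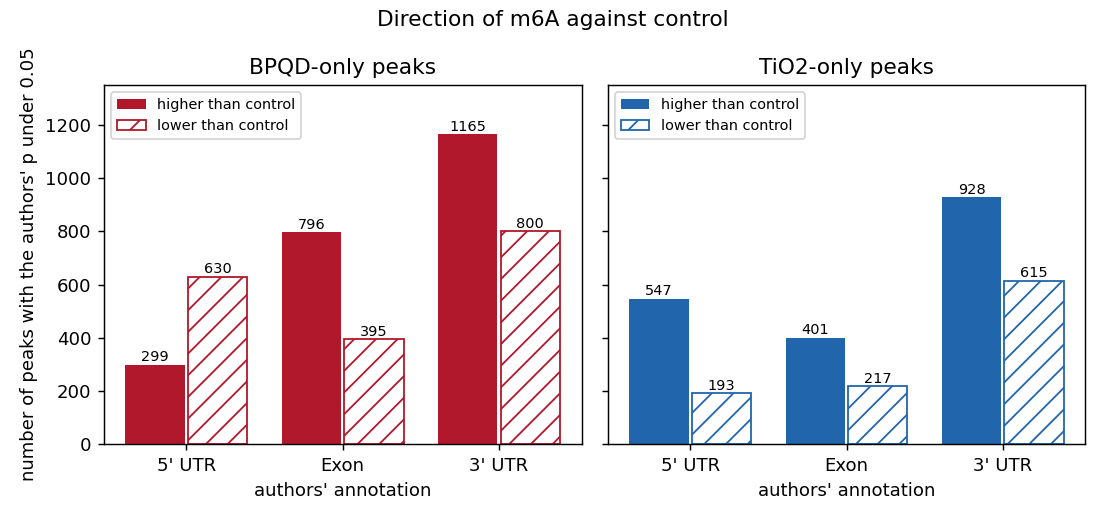
Number of material-only peaks (vertical axis) with the authors' p under 0.05 that were higher (filled) or lower (hatched) than control, by annotation; BPQD-only on the left, TiO2-only on the right. Among 5′ UTR peaks 630 of the BPQD-only ones were lower and 299 higher, while 193 of the TiO2-only ones were lower and 547 higher.

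Within the BPQD-only 5′ UTR set the excess of lower peaks was greatest for narrow peaks, for peaks over the start site and for abundant RNAs. Of called peaks up to 500 bases wide 56 were higher and 230 lower; those that spanned the start site in the authors' annotation numbered 217 higher and 545 lower, and those away from it 82 and 85. Genes over 10 FPKM had 55 higher and 296 lower, whereas genes under 1 FPKM had 69 and 59. In the TiO2-only 5′ UTR set higher peaks prevailed in genes under 1 FPKM (83 higher, 30 lower) and over 10 FPKM (129 and 75), but narrow peaks were evenly split (68 and 65). In called 3′ UTR peaks of that width 63.2% of the BPQD-only ones were higher, against 34.4% of the TiO2-only ones. Counting 1 peak per gene and set, that with the smallest p in the class, left the 5′ UTR counts at 279 higher and 580 lower for BPQD-only and 512 and 183 for TiO2-only. Among the 528 tested hosts of lower BPQD-only 5′ UTR peaks, input expression under BPQD rose in 115 and fell in 151, 21.8% and 28.6%, against 20.6% and 23.4% of all genes tested; the median change was -0.05 on the log2 scale.

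The BPQD-only peaks with the smallest authors' p included a large gain in NEAT1 and small losses in very abundant RNAs. NEAT1 is the lncRNA around which nuclear paraspeckles form. Of its 3 BPQD-only peaks, that at chr11:65428191-65428791, in an exon, had a log2 fold change of 3.81 (p = 1.26e-86 in the authors' deposited table), while an overlapping pair of exon peaks stood at 0.17 each. Both tables also listed a shared peak nearer the gene's 5′ end, with log2 fold changes of 0.17 under BPQD and 0.04 under TiO2. The DNA-repair gene FANCC had a 3′ UTR peak with a log2 fold change of 1.92 (p = 2.51e-77 in the authors' deposited table), and BTBD2, a BTB-domain protein gene, 3 overlapping exon peaks at 1.75, 1.81 and 1.92. On the lower side stood the 5′ UTR of FTH1, the heavy chain of the iron store ferritin, at chr11:61967041-61967634, with a log2 fold change of only -0.19 but p = 1e-155 in the authors' deposited table. RPL13A and PTMA, a ribosomal protein and prothymosin alpha, had 3′ UTR peaks of -0.18 and -0.19. A shared 3′ UTR peak of RPL13A, 119 bases away, was lower under both materials, at -0.23 under BPQD and -0.26 under TiO2. FTH1, RPL13A and PTMA RNAs are abundant and have processed pseudogenes, so their read assignment is uncertain. LSM12, which encodes an Sm-like RNA-binding protein, changed more, with 3′ UTR peaks at -0.79 (p = 3.16e-46) and -1.99 (p = 6.31e-40 in the authors' deposited table).

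Among TiO2-only peaks those with the smallest p-values included genes with near-identical copies. The pseudogene SHLD2P1 held 3 overlapping exon peaks with log2 fold changes of 1.70, 2.38 and 2.66 in the authors' deposited table. NOMO3, one of a set of nearly identical genes, had a 5′ UTR peak at 7.23, and BOLA2B, duplicated on chromosome 16, had exon and 3′ UTR peaks at -4.56 and -7.99; reads from copies can be split between them, so these values are uncertain. The other peaks named here changed less. CTSZ, a lysosomal cathepsin, had a 3′ UTR peak with a log2 fold change of 0.22 (p = 7.94e-48 in the authors' deposited table). MRNIP, a DNA-damage response gene, had a 5′ UTR peak at -0.71 (p = 2e-40 in the authors' deposited table), 88 bases from a BPQD-table peak, while a wider MRNIP peak over the same bases was shared.

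In the m6A machinery, 5 of 9 writer genes with any peak held a BPQD-only peak and 2 a TiO2-only peak; over all 11815 genes with a peak and an FPKM value these shares were 47.1% and 37.4%. METTL16, a writer for U6 RNA and MAT2A, had BPQD-only and TiO2-only peaks in the 3′ UTR, 3070 bases apart, with log2 fold changes of 0.42 under BPQD (p = 0.000219) and 0.32 under TiO2 (p = 2.51e-14) in the authors' deposited tables. Its input level was 4.03, 4.28 and 4.84 FPKM under BPQD, 3.20, 3.10 and 3.20 under TiO2, and 2.96, 3.79 and 3.37 in control. The BPQD libraries were all above those of the other groups, and expression was higher under BPQD than under TiO2 by 0.37 on the log2(FPKM + 1) scale (SE 0.079, adjusted p = 0.00833, limma). ZC3H13, a subunit of the writer complex, had a wide TiO2-only exon peak at 0.08 (p = 0.00132 in the authors' deposited table).

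Of 13 reader genes with a peak, 5 held a BPQD-only and 3 a TiO2-only peak. The nuclear reader YTHDC1 held 3 BPQD-only peaks, in 2 exon spans and the 5′ UTR, with log2 fold changes of -0.25, -0.18 and -0.23 (p = 0.00871, 4.68e-05 and 0.00135 in the authors' deposited table). Its input level ran the other way, with 13.8, 15.9 and 16.3 FPKM under BPQD, 11.9, 12.2 and 12 under TiO2 and 10.9, 9.41 and 8.98 in control. No library overlapped between groups, and expression was above control by 0.60 under BPQD (adjusted p = 0.000618) and 0.28 under TiO2 (adjusted p = 0.0248, limma). IGF2BP2, a reader that stabilises its targets, had a BPQD-only 3′ UTR peak at 0.28 (p = 0.00427 in the authors' deposited table), and the cytosolic reader YTHDF1 a TiO2-only 3′ UTR peak at 0.10 (p = 4.79e-07 in the authors' deposited table). YTHDF3, another cytosolic reader, had 5′ UTR peaks in both sets, BPQD-only at -0.52 (p = 3.8e-06) and TiO2-only at 0.21 (p = 1.45e-09 in the authors' deposited tables). Its input level was 2.56, 2.49 and 2.30 FPKM under BPQD, 2.03, 6.52 and 1.91 under TiO2 and 1.78, 5.99 and 6.12 in control, with wide spread and overlap between groups (BPQD against TiO2 -0.23, adjusted p = 0.73, limma). The eraser FTO had 1 peak in each table, a BPQD-only 3′ UTR peak at 0.59 (p = 0.357) and a TiO2-only 5′ UTR peak at -0.33 (p = 0.0115 in the authors' deposited tables).

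**Figure D4:**
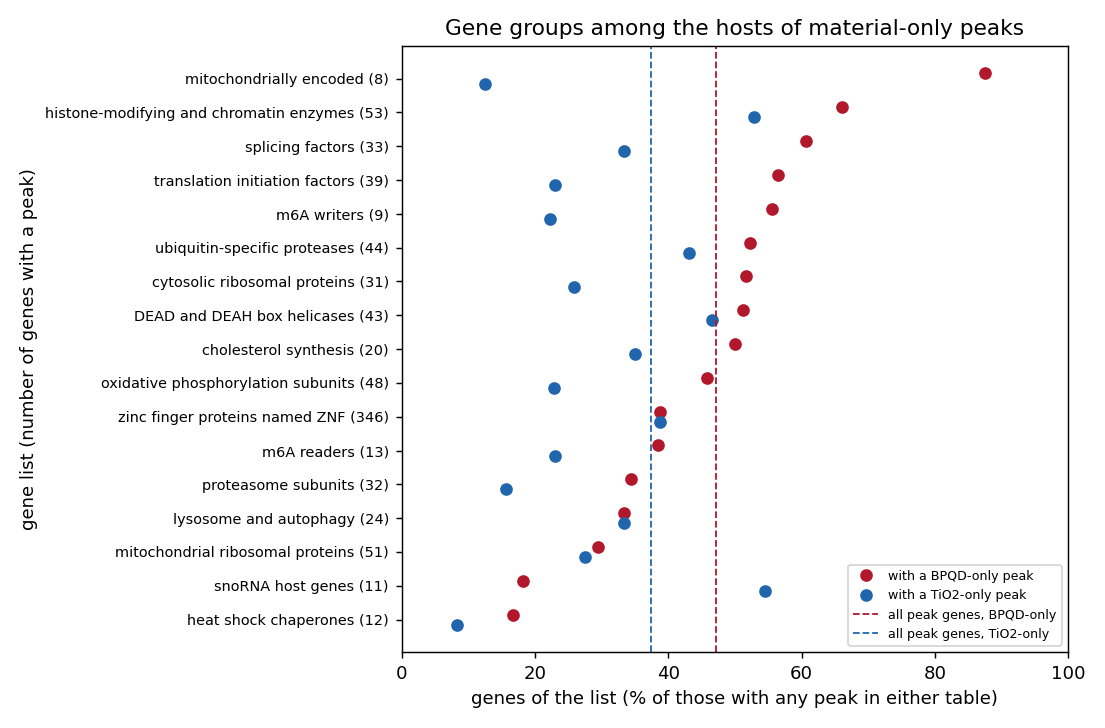
For each gene group (rows, with the number of its genes that have a peak in either table), the percentage holding a BPQD-only and a TiO2-only peak; dashed lines give the same over all genes with a peak. Mitochondrially encoded genes stand to the right for BPQD-only and to the left for TiO2-only peaks (87.5% and 12.5%), snoRNA host genes the other way (18.2% and 54.5%), with few genes each.

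Among other gene groups, called BPQD-only peaks were mainly lower for splicing factors, translation initiation factors and DEAD and DEAH box RNA helicases. Of all called BPQD-only peaks 55.3% were higher. Related groups differed. Mitochondrial ribosomal proteins had 8 higher and 6 lower called BPQD-only peaks, cytosolic ribosomal proteins 5 and 8, and m6A writers 4 and 0. Splicing factors and translation initiation factors are abundant, with medians of 26.9 and 19.5 FPKM. Called BPQD-only peaks of all genes over 10 FPKM also leaned lower or were evenly split. They numbered 55 higher and 296 lower in 5′ UTRs, 96 and 123 in exons, and 265 and 269 in 3′ UTRs. The part of abundance in the group counts was not tested. Of 33 splicing-factor genes with a peak, 20 held a BPQD-only (60.6%) and 11 a TiO2-only peak (33.3%). Over all genes with a peak these shares were 47.1% and 37.4%. Splicing factors had 6 higher and 17 lower called BPQD-only peaks and 2 higher and 7 lower TiO2-only ones. Of all called TiO2-only peaks 64.7% were higher. HNRNPU, HNRNPA1 and HNRNPM, hnRNP proteins that bind pre-mRNA, had BPQD-only peaks at -0.21, -0.14 and -0.24 (p = 1.26e-28, 6.31e-27 and 2.51e-21 in the authors' deposited table). Shared peaks of HNRNPU were lower under both materials, between -0.25 and -0.35 under BPQD and between -0.15 and -0.26 under TiO2. A shared 5′ UTR peak of HNRNPM stood at -0.29 under BPQD and -0.05 under TiO2. Lower m6A at these 2 genes was thus not limited to BPQD. HNRNPA1 input was 394, 407 and 404 FPKM under BPQD, 281, 281 and 271 under TiO2 and 241, 235 and 250 in control. That gene, which has many pseudogenes, was thus higher in every BPQD library than in any other, by 0.53 over TiO2 (adjusted p = 1.2e-05, limma). In TiO2-only peaks the splicing regulator MBNL2 was higher at a 112810-base 5′ UTR span (0.37, p = 1.58e-18 in the authors' deposited table).

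Translation initiation genes followed a like pattern. Of 39 with a peak, 22 held a BPQD-only (56.4%) and 9 a TiO2-only peak (23.1%), against 47.1% and 37.4% of all genes with a peak. Among called BPQD-only peaks 7 were higher and 13 lower, and among TiO2-only ones 2 and 6. Besides EIF5A, the lower BPQD-only 5′ UTR peaks included EIF3J at -0.27 (p = 3.16e-14) and EIF1AX at -0.25 (p = 6.92e-06 in the authors' deposited table), both factors that act on the small ribosomal subunit; a BPQD-only 3′ UTR peak of EIF3J was higher (0.48, p = 6.76e-05 in the authors' deposited table). EIF5A input showed no such change: 215, 213 and 200 FPKM under BPQD, 199, 205 and 214 under TiO2, and 224, 224 and 188 in control, with all groups overlapping (BPQD against control -0.01, adjusted p = 0.905, limma). TiO2-only peaks of EIF4G1, the scaffold of the cap-binding complex, and of the kinase gene EIF2AK4 stood at 0.09 and -0.72 (p = 1.29e-09 and 7.94e-06 in the authors' deposited table). EIF2AK4 also held lower BPQD-only exon peaks, at -0.20 (p = 0.00479) and -0.40 (p = 0.00661 in the authors' deposited table). DEAD and DEAH box RNA helicases had 3 higher and 13 lower called BPQD-only peaks, against 7 and 6 TiO2-only ones. Among all called peaks 55.3% of BPQD-only and 64.7% of TiO2-only ones were higher. DDX6, a helicase of mRNA decay bodies, had a higher TiO2-only 5′ UTR peak (0.43, p = 7.94e-12 in the authors' deposited table).

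All mitochondrially encoded BPQD-only peaks were lower. Of 8 such genes with a peak 7 held a BPQD-only peak, 7 peaks in all, each with p under 0.05 and a negative fold change, and 1 gene held TiO2-only peaks. MT-ND4, MT-ND1 and MT-ND3, subunits of respiratory complex I, had log2 fold changes of -0.40, -0.34 and -0.40 (p = 2e-19, 3.39e-06 and 2.75e-05 in the authors' deposited table). MT-ND5 was the gene in both sets, with a BPQD-only peak at -0.37 (p = 0.000575) and a TiO2-only peak at 0.43 (p = 8.71e-05 in the authors' deposited tables), 1097 bases from the nearest BPQD-table peak; its other TiO2-only peak stood at 0.19 (p = 0.173). MT-ND4 input was 66.3, 64.9 and 66.6 FPKM under BPQD, 58.1, 55.0 and 51.3 under TiO2 and 50.3, 50.9 and 53.5 in control; the BPQD libraries stood apart and were 0.35 above control (adjusted p = 0.000602, limma). Nuclear copies of mitochondrial DNA and transcripts of the opposite strand could share these reads.

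Zinc finger genes had mainly higher called peaks in both sets, as had genes at large (55.3% higher of all called BPQD-only and 64.7% of all called TiO2-only peaks). Of 346 ZNF genes with a peak 134 held a BPQD-only and 134 a TiO2-only peak; 64 called BPQD-only peaks were higher and 25 lower, and 79 TiO2-only peaks were higher and 12 lower. ZNF322 had a BPQD-only 5′ UTR peak at 0.46 (p = 1.91e-10) and ZNF839 a TiO2-only one at 0.41 (p = 4.27e-08 in the authors' deposited tables). Intergenic lncRNAs with LINC names were higher in 35 and lower in 6 called BPQD-only peaks, and in 25 and 15 TiO2-only peaks. Those with a peak are weakly expressed, with a median of 0.24 FPKM. Over all genes under 1 FPKM, called exon peaks numbered 306 higher and 76 lower for BPQD-only, and 173 and 74 for TiO2-only. The part of low abundance in the LINC counts was not tested. Of 53 chromatin-modifying enzyme genes with a peak 35 held a BPQD-only and 28 a TiO2-only peak, 66.0% and 52.8% against 47.1% and 37.4% of all genes with a peak. Their directions were near those of genes at large, with 23 higher and 16 lower BPQD-only and 24 higher and 16 lower TiO2-only peaks. Among them, the histone methyltransferase gene EHMT1 had a BPQD-only 3′ UTR peak at 0.33 (p = 1.07e-07), and SETD5 a TiO2-only 3′ UTR peak at 0.32 (p = 1.58e-30 in the authors' deposited tables). EHMT1 also held higher TiO2-only peaks, in the 5′ UTR at 0.11 (p = 0.00513) and the 3′ UTR at 0.84 (p = 0.0347 in the authors' deposited table).

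Groups of the response to stress and of organelles differed among themselves. Of 17 NRF2-target and glutathione genes 8 held a BPQD-only and 4 a TiO2-only peak; of 24 lysosome and autophagy genes 8 held each; of 12 heat shock chaperone genes 2 and 1. Proteasome subunits held BPQD-only peaks in 11 and TiO2-only peaks in 5 of 32 genes, 34.4% and 15.6% against 47.1% and 37.4% of all genes with a peak. Their called BPQD-only peaks were higher in 8 and lower in 5 cases, and TiO2-only ones in 2 and 1. PSMD2 had a lower BPQD-only 5′ UTR peak (-0.31, p = 3.98e-09) and PSMA3 a higher BPQD-only 3′ UTR peak (0.33, p = 5.37e-10 in the authors' deposited table). Extracellular matrix and integrin genes held BPQD-only peaks in 21 and TiO2-only peaks in 15 of 41 genes. ITGA5, the fibronectin receptor subunit, had a TiO2-only 3′ UTR peak at 0.17 (p = 2.51e-28 in the authors' deposited table). RAB GTPases of vesicle traffic had 5 higher and 12 lower called BPQD-only peaks, and 2 higher and 7 lower TiO2-only peaks. Among all called peaks 55.3% of BPQD-only and 64.7% of TiO2-only ones were higher. Lower BPQD-only RAB peaks included the 5′ UTRs of RAB1A (-0.33) and RAB10 (-0.31) in the authors' deposited table. Called BPQD-only 5′ UTR peaks of all genes also leaned lower (299 higher, 630 lower), and the part of this class in the RAB counts was not tested.

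In input expression, hosts of material-only peaks were called about as often as genes at large. Of 3757 tested hosts of BPQD-only peaks, 820 were higher (21.8%) and 699 lower (18.6%) under BPQD than under TiO2 at an adjusted p under 0.05 (limma on log2(FPKM + 1)); of 2985 tested hosts of TiO2-only peaks 621 were higher (20.8%) and 565 lower (18.9%). Over all 12224 genes tested 37.6% were called, 19% higher and 18.6% lower. Rescaled to TPM the split was 26.2% higher and 14.9% lower for BPQD-only hosts, 25.5% and 15.7% for TiO2-only hosts, and 23.1% and 15.1% for all genes tested. Genes with peaks in the BPQD table alone were higher in 353 and lower in 370 of 1797 tested cases, and genes in the TiO2 table alone in 254 and 293 of 1399. The median difference was 0.01 on the log2 scale for both host sets and 0.00 for all genes tested. The libraries are bulk RNA, so a change in the mix of cells and a change per cell cannot be told apart.

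Some hosts did differ strongly. NEAT1 had 9, 13.3 and 14.4 FPKM under BPQD, 3.01, 2.52 and 6.92 under TiO2, and 3.12, 4.25 and 3.43 in control. Every BPQD library was above all others, by 1.43 over TiO2 (SE 0.31, adjusted p = 0.0083) and 1.51 over control (adjusted p = 0.00559, limma). LINC00641, an lncRNA, averaged 5.98 ± 0.19 FPKM under BPQD, 1.41 ± 0.17 under TiO2 and 1.91 ± 0.067 in control (SD, n = 3 each). It was 1.54 higher under BPQD than under TiO2 (adjusted p = 2.46e-06, limma), and its BPQD-only exon peak stood at 2.50 (p = 1.26e-14 in the authors' deposited table). These RNAs were higher both in input expression and in the m6A fold change of their BPQD-only peak.

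GPX1, a glutathione peroxidase that removes peroxides, had the largest fall between BPQD and TiO2 among the BPQD-only hosts chosen by the naming rule. Its input level was 30, 28.6 and 44.0 FPKM under BPQD, 80, 204 and 204 under TiO2, and 83.9, 80.2 and 79.4 in control. The BPQD libraries lay below all others; 1 TiO2 library was at the control level and the other 2 far above it. The difference was -2.12 between BPQD and TiO2 (SE 0.35, adjusted p = 0.00253) and -1.25 between BPQD and control (adjusted p = 0.0228), while TiO2 against control did not pass the test (0.87, adjusted p = 0.0903, limma). Its BPQD-only 5′ UTR peak, chr3:49358240-49358358, was lower as well (-0.32, p = 5.62e-05 in the authors' deposited table). FTH1 had 2361, 2369 and 2346 FPKM under BPQD, 3867, 3857 and 3925 under TiO2, and 2972, 1538 and 2518 in control, and was 0.78 above control under TiO2 (adjusted p = 0.0206) and 0.06 above it under BPQD (adjusted p = 0.831, limma).

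Cholesterol-synthesis genes held peaks of both sets, and HMGCS1, ACAT2 and MSMO1 were among the hosts most changed in input between the materials, which is why they are named. Of 20 such genes with a peak 10 held a BPQD-only and 7 a TiO2-only peak. These counts were near the shares over all genes with a peak, 47.1% and 37.4%. Called BPQD-only peaks of the group were higher in 8 and lower in 4 cases, and TiO2-only ones in 2 and 2. Among all called peaks 55.3% of BPQD-only and 64.7% of TiO2-only ones were higher. HMGCS1, the synthase of HMG-CoA, had 14, 12.4 and 14.5 FPKM under BPQD, 35.3, 33.1 and 36.1 under TiO2, and 13.6, 13.1 and 13.1 in control. TiO2 libraries stood far above both other groups, which overlapped; the rise over control under TiO2 was 1.33 (adjusted p = 6.17e-06, limma). Its TiO2-only 5′ UTR peak changed by only -0.10 (p = 0.0141 in the authors' deposited table). ACAT2, acetyl-CoA acetyltransferase, averaged 11.2 ± 0.26 FPKM under BPQD, 38.7 ± 0.089 under TiO2 and 14.1 ± 0.48 in control (SD, n = 3 each). Of its 4 BPQD-only 5′ UTR peaks, those at -1.88 (p = 0.0166) and -2.05 (p = 0.038) passed in the authors' deposited table. The sterol methyl oxidase gene MSMO1 had a BPQD-only 3′ UTR peak at 0.61 (p = 2.57e-05 in the authors' deposited table) without a change of input under BPQD (0.01 against control, adjusted p = 0.935, limma), and 1.29 more input under TiO2 than in control (adjusted p = 3.69e-06, limma).

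**Figure D5:**
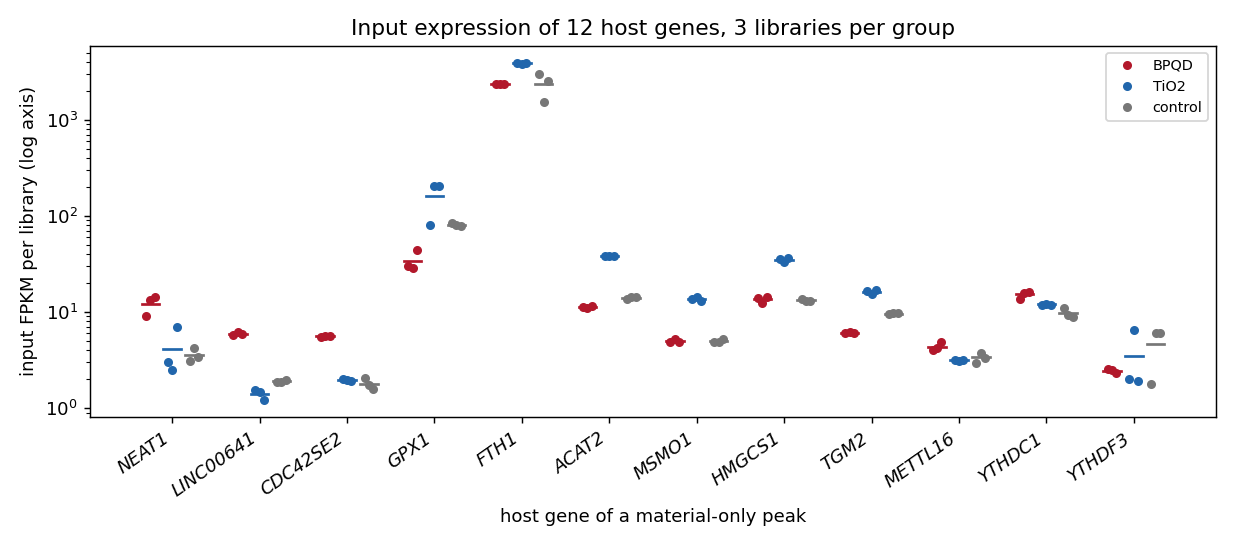
Input FPKM (log axis) of 12 host genes of material-only peaks; points are the 3 libraries of a group and lines their mean. NEAT1, LINC00641 and CDC42SE2 were highest under BPQD, while ACAT2, MSMO1, HMGCS1 and TGM2 were highest under TiO2 in all 3 libraries.

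Hosts of TiO2-only peaks showed strong differences in both directions too. CDC42SE2, a small effector of the GTPase CDC42, had 5.55, 5.69 and 5.57 FPKM under BPQD, 1.99, 1.95 and 1.92 under TiO2 and 2.06, 1.73 and 1.58 in control. It was therefore raised under BPQD, 1.16 above TiO2 (adjusted p = 1.17e-05, limma), although its 5′ UTR peak was listed for TiO2 (0.22, p = 0.0166 in the authors' deposited table). TGM2, a transglutaminase that crosslinks proteins, averaged 6.10 ± 0.069 FPKM under BPQD, 16.3 ± 0.70 under TiO2 and 9.66 ± 0.11 in control (SD, n = 3 each), each group apart from the others. Its TiO2-only exon peak stood at 0.37 (p = 0.163 in the authors' deposited table). CCN1, a matrix protein gene induced by YAP, had a TiO2-only 3′ UTR peak at 0.20 (p = 6.31e-15) and a 5′ UTR peak at -0.32 (p = 0.0107 in the authors' deposited table), with 36.0, 38 and 37.0 FPKM under BPQD, 58.4, 59.5 and 60.8 under TiO2 and 37.2, 36.8 and 36.1 in control. Input of CCN1 was thus 0.68 above control under TiO2 (adjusted p = 4.53e-06) and not detectably different under BPQD (0.01, adjusted p = 0.785, limma).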

How the data were processed

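Input RNA and m6A immunoprecipitation libraries were sequenced in 3 groups of 3. The authors' deposited expression table gives FPKM per gene for the 9 input libraries, per the file headers; the submitters' processing notes name HISAT2 and StringTie 1.3.0. Neither counts nor depth came with the table, so precision rests on 3 libraries a group. The deposited peak tables give, per the file headers, each peak's position, annotation, the authors' log2 fold change (material over control), p-value and log10 FDR score; how peaks were called, and whether on pooled replicates, is not given in the sources used here. HISAT2 has no version there either. The notes list the mouse build mm10, but gene IDs are human: of 24557 symbols found in RefSeq GRCh38.p14, 100% had the chromosome given in the tables and for 90.2% the starts differed by at most 2000 bases, so coordinates are read as GRCh38. In the peak tables, 12 FPKM columns repeat the expression table and were not used.

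Repeated entries were dropped (1 BPQD, 5 TiO2), keeping the smallest p, and tables were intersected in Python 3.11.15 (pandas 2.3.3). Shares have Wilson 95% intervals. Input expression was tested with limma 3.58.1 (R 4.3.3) on log2(FPKM + 1), all 9 libraries in 1 fit, for 12224 genes that averaged 1 FPKM or more, with Benjamini-Hochberg adjustment; the pseudocount understates changes of low genes. On simulated data of that size for BPQD against TiO2, 89 of 100 genes changed by 1 and 67 of 100 changed by 0.5 (log2) were recovered, with 16 other calls. Members, gene lists and tests were chosen with earlier results of these data known. Genes named are the smallest-p peaks per set and direction, the host genes most changed between materials, the m6A machinery and the smallest-p members of each list, all of at least 1 FPKM save the widest peaks; peaks printed as sequence were added after their values were seen. Some genes that meet the rule are not reported here. Members without an FPKM value (52 BPQD-only and 50 TiO2-only peaks) stay out of expression summaries. Unless given otherwise, SE and fold changes of expression are on the log2(FPKM + 1) scale.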

Additional observations from a re-analysis of the deposited data

How the results depend on the processing

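Of 144 alternative values for the main results, 122 kept within their error or within 1.5 times the reported count and 22 moved. At the authors' FDR under 0.05, 2456 of 7504 BPQD-only and 1492 of 5499 TiO2-only peaks were called. The same share over all peaks of each table is not given here, so these counts have no background beside them. Of TiO2-only 5′ UTR peaks called at that FDR, 82.4% were higher. With peaks counted as material-only when under 50% covered by the other table, median widths were 480 and 656 bases for BPQD-only and TiO2-only peaks, and 26.1% of TiO2-only peaks were 5′ UTR. With peaks up to 10000 bases only, widths were 397 and 470 bases, 5′ UTR shares 20.8% and 22.1%, and the TiO2-only 3′ UTR share 46.5%. In genes of at least 1 FPKM, BPQD-only peaks were 26.3% 5′ UTR, 26.9% exon and 46.8% 3′ UTR, with a width of 479 bases, 5.68 FPKM and 28.4% of called 5′ UTR peaks higher; TiO2-only peaks were 29.1%, 21.2% and 49.6%, with 628 bases and 5.10 FPKM. The higher exon share and smaller width of BPQD-only peaks thus kept their direction in these settings. The 5′ UTR higher shares and the median centring of expression were added after seeing the data.

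Leaving out 1 input library at a time gave 711 to 795 higher and 590 to 682 lower BPQD-only hosts, and 522 to 600 higher and 473 to 548 lower TiO2-only hosts. With the replicate block these were 746 and 627, and 567 and 512. Same-numbered libraries did not deviate together (r between -0.083 and 0.0733), so no pairing by number was seen. The labels do not say whether a number marks a shared batch. Of 320 values for single genes 303 kept their call, 17 lost it (AC073896 and PXDC1) and none reversed. Depth is unknown, so what it limits cannot be given.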
